A study of Homo sapiens with 8 samples.

Results

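The genes described here are 34 genes of glycolysis and of the response to low oxygen, out of 60666 gene IDs in the deposited count table. They were taken as a fixed list of symbols: 17 glycolytic enzymes, 4 carriers of glucose or lactate, 3 regulatory kinases, and 10 genes of oxygen sensing or of the hypoxia response. All 34 symbols matched 1 gene ID each. The RNA came from MRC5 cells, a long-used fibroblast line derived from human lung; it was sequenced as 8 libraries, 2 in each of 4 groups. The groups were shMTHFD2 cells given TGF-β1, shMock cells given TGF-β1, shMTHFD2 control cells and shMock control cells. shMTHFD2 stands for a short hairpin RNA against MTHFD2, an enzyme of mitochondrial one-carbon metabolism, and shMock for the control hairpin; every group therefore carries a hairpin. The dose of TGF-β1 is labelled as 4 ng with no volume, and the incubation as 24 h; that text also stands on the control samples, and the titles decide the group. The labels do not say whether each transduced line is a clone or a pool, nor whether the 2 libraries of a group came from separate cultures, so p-values reflect how far the libraries at hand scatter and may cover technical variation alone. Since there is 1 line per hairpin, a difference between shMTHFD2 and shMock is a difference between lines.

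Glycolysis converts glucose into pyruvate in the cytosol, and lactate dehydrogenase and the monocarboxylate carriers dispose of the product as lactate. Hexokinase and phosphofructokinase are its regulated entry steps, and the PFKFB kinases set the level of fructose 2,6-bisphosphate, an activator of phosphofructokinase. Many of these genes are induced by the transcription factor HIF-1, whose oxygen-labile subunit is encoded by HIF1A; in normal oxygen that subunit is hydroxylated by the EGLN enzymes and degraded, so its activity is set mainly on the protein, which RNA does not show. TGF-β1 turns lung fibroblasts into matrix-producing myofibroblasts, and glycolysis has been linked to that change.

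HIF-1 binds the core letters ACGTG or GCGTG. These letters were searched on both strands in the 250 bases before 1 RefSeq start of each gene, the first listed where there were several (12 genes); CACGTG, the canonical E-box that MYC and other factors bind, contains ACGTG on both strands and was counted as 1 place. RefSeq promoters (build GRCh38.p14) were at hand for 29 of the 34 genes, and 18 of the 29 (62.1%) held the core, against 11763 of 27305 promoters in the table (43.1%). CACGTG stood in 5 of the 29 (17.2%), those of ALDOC, GAPDH, LDHA, ANKRD37 and BNIP3, against 6.49% of all promoters. BNIP3 held 5 places, the highest number, and ALDOC 4. These starts need not be the outermost ones: 18 of the 29 lay over 250 bases inside the GENCODE 29 gene, among them those of PGAM1 (1658 bases), PFKFB4 (5212 bases) and SLC2A1 (308 bases), while 26 lay within 250 bases of a GENCODE transcript start, all but PFKP, PGAM1 (284 bases) and EGLN1. A match describes the letters in this window and is not evidence of binding. The 4 genes shown first are those that were lower in shMTHFD2 both with and without TGF-β1, and PFKFB3 is the gene with the largest response to TGF-β1. The core is in capitals: HIF1A, PFKFB3 and PFKFB4 had it at 1 place each, and the windows shown for PGAM1 and SLC2A1 do not hold these letters, which says nothing of other starts of these genes. Each is written 5′ to 3′ on the strand of its gene, and CACGC in PFKFB3 is GCGTG read on the other strand.
HIF1A (chr14:61695263-61695512, plus strand): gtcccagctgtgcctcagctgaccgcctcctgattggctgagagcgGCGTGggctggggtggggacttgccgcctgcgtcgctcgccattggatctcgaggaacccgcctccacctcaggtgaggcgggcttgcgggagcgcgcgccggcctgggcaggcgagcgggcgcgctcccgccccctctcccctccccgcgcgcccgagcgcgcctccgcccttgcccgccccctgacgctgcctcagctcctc
PGAM1 (chr10:97427568-97427817, plus strand): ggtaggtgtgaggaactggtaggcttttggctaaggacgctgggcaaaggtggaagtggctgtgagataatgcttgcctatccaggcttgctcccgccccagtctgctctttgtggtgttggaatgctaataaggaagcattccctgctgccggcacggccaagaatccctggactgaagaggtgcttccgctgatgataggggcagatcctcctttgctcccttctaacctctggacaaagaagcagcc
SLC2A1 (chr1:42958869-42959118, minus strand): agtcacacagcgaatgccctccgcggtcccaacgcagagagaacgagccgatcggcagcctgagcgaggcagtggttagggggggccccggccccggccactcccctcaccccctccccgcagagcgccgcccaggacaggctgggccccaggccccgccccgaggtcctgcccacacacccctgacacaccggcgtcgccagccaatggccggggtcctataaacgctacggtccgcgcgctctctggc
PFKFB4 (chr3:48556804-48557053, minus strand): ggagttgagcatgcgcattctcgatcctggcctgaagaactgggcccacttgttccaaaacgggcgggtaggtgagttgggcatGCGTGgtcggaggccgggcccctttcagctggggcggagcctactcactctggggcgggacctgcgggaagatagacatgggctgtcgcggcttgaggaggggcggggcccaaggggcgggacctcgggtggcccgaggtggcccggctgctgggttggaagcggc
PFKFB3 (chr10:6144671-6144920, plus strand): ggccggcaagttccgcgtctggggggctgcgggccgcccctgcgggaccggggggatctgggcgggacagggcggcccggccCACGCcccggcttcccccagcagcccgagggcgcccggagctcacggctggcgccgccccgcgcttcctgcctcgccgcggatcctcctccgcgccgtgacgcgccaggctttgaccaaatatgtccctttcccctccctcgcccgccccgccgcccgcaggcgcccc

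Library totals ran from 18162738 to 22221927 counts, and levels are given in CPM, each gene's count relative to the total of its library after trimmed-mean scaling. A floor of 3 counts stood at 0.135 to 0.172 CPM. MTHFD2 had 93.8 and 91.9 CPM in shMTHFD2 cells with TGF-β1, against 256 and 258 CPM in shMock cells with TGF-β1. Without TGF-β1 it had 14.9 and 18.7 CPM in shMTHFD2 cells, against 58.8 and 57.1 CPM in shMock cells. The log2 fold change was -1.47 (SE 0.09) with and -1.79 (SE 0.10) without TGF-β1. The genotype entry of 3 shMTHFD2 samples gives a different gene, and the extraction text speaks of A549 cells and a DUSP23 hairpin; groups follow the titles, and DUSP23 stood at 1.28 to 2.96 CPM. All 10 fibroblast markers passed the expression filter, while none of 8 epithelial and 6 immune markers did, and KRT5, KRT19, SFTPC, NKX2-1, PECAM1, CDH5, ERG and DES had no counts. Of the 5 endothelial markers 2 passed; TEK, an angiopoietin receptor, had 38.6 and 37.2 CPM in shMTHFD2 and 44.6 and 40.0 CPM in shMock with TGF-β1, against 84.8 and 91.9 CPM in shMTHFD2 control and 96.0 and 85.8 CPM in shMock control. The endothelial list summed to 38.1 to 46.2 CPM with TGF-β1 and 87.1 to 97.7 CPM in control. The summed level was at most 2.35 CPM for the epithelial and 1.28 CPM for the immune list. The 5 smooth muscle and pericyte markers summed to 173 to 177 CPM in shMTHFD2 and 282 to 288 CPM in shMock cells with TGF-β1, and to 56.8 to 57.7 CPM in shMTHFD2 and 95.6 to 98.6 CPM in shMock cells without it. The part of these smooth muscle and endothelial signals in the results below was not tested. In bulk RNA, fewer cells of a kind and less RNA per cell cannot be told apart.

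Of the 34 genes, 31 had a mean of at least 1 CPM and were tested among 13493 genes with edgeR's quasi-likelihood test, with Benjamini-Hochberg adjustment and a threshold of 0.05. The others were barely detected. CA9, a carbonic anhydrase and textbook marker of hypoxia, had 5 counts in all 8 libraries together, and EGLN3, a HIF-induced prolyl hydroxylase, had 4 counts. ANKRD37, a further HIF target, had 22 and 11 counts in shMTHFD2 with TGF-β1, 13 and 10 in shMock with TGF-β1, 10 and 11 in shMTHFD2 control and 8 and 7 in shMock control, a mean of 0.581 CPM that lay just outside the filter. The lowest gene inside it was PDK1, with 11.7 to 21.5 CPM. Of the 31, 26 (83.9%) passed the threshold in at least 1 of the 4 comparisons between groups, beside 46.3% of all genes tested, and PDK1, VEGFA, BNIP3, BNIP3L and EGLN1 in none.

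Per kilobase of exon, GAPDH stood highest, with a mean of 963 CPM per kb in shMock control cells, followed by PKM with 205, ENO1 with 195 and ALDOA with 176 CPM per kb. SLC2A1, the glucose transporter GLUT1, was the highest carrier at 81.2 CPM per kb, and HIF1A stood at 50.1 CPM per kb. Added up, the 17 enzymes came to 1552 and 1583 CPM per kb in shMTHFD2 with TGF-β1, 1667 and 1535 in shMock with TGF-β1, 1898 and 1861 in shMTHFD2 control, and 2061 and 2201 CPM per kb in shMock control. The sum was lowest in the 4 TGF-β1 libraries, where the shMTHFD2 and shMock libraries overlapped, and highest in shMock control. GAPDH alone makes up a large part of this sum, which was not tested.

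**Figure D1:**
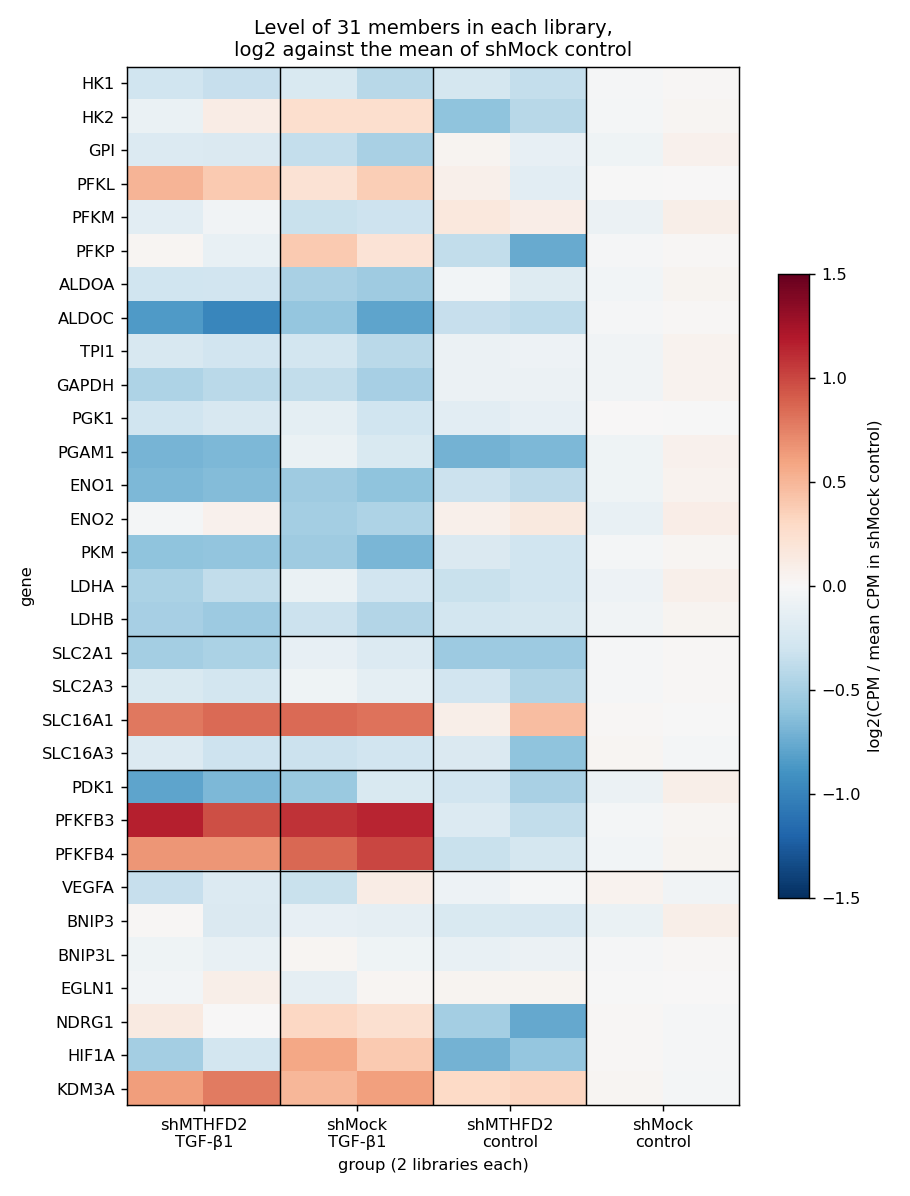
Level of the 31 tested genes in each of the 8 libraries, as log2 of CPM over the mean CPM in shMock control; rows are genes grouped by role, columns are libraries grouped by line and treatment. PFKFB3, PFKFB4, SLC16A1 and KDM3A are above the shMock control mean in all 4 TGF-β1 libraries, ALDOC, ENO1 and PKM below it, and HIF1A, PGAM1 and SLC2A1 are below it in all 4 shMTHFD2 libraries.

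How the knockdown changes expression during fibrotic activation is the question the study set. Under TGF-β1, HIF1A, PGAM1, SLC2A1 and PFKFB4 fell in shMTHFD2 relative to shMock, and ENO2, the neuronal-type enolase, rose. These 4 lower genes are 12.9% of the 31, beside 8.23% of all genes tested, and the single higher gene is 3.23%, beside 4.83% of all genes. The median log2 fold change was -0.05, against 0.01 over all genes. PGAM1, ENO2 and HIF1A passed in every alternative run. Leaving out shMTHFD2 TGF-β1 library 1 or 2 left fewer lower genes, among the 31 and over all genes. With library totals as the scaling, the median of all genes moved to 0.10. Then 4 of the 31 genes were higher and 3 lower, beside 1338 and 717 of all 13493 genes.

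Without TGF-β1, 14 of the 31 genes fell in shMTHFD2 (45.2%), beside 8.19% of all genes, and KDM3A, a histone demethylase induced by HIF-1, rose as 1 of 31 (3.23%), beside 3.25%. The median log2 fold change was -0.27, against -0.01 over all genes. The 14 were HIF1A, NDRG1, the carriers SLC2A1, SLC2A3 and SLC16A3, PFKFB4, and the 8 enzymes PGAM1, PFKP, HK2, ALDOC, ENO1, LDHA, HK1 and LDHB. Most were small, and only PGAM1, HIF1A and NDRG1 changed by 1.5-fold or more. PGAM1, SLC2A1, NDRG1 and HIF1A passed in every alternative. Leaving out any one of the control libraries gave fewer lower genes, among the 31 and over all genes. The median of the 17 enzymes then lay between -0.29 and -0.21, against -0.26 with all libraries. With library totals 8 of the 31 were lower, beside 740 of all 13493 genes. All 4 genes that fell under TGF-β1 were among the 14 that fell without it, 28.6% of the longer list. Of the 4, the PFKFB4 call was lost in 10 alternatives in each comparison. The same overlap was not counted over all genes, so no excess over it can be read from this.

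**Figure D2:**
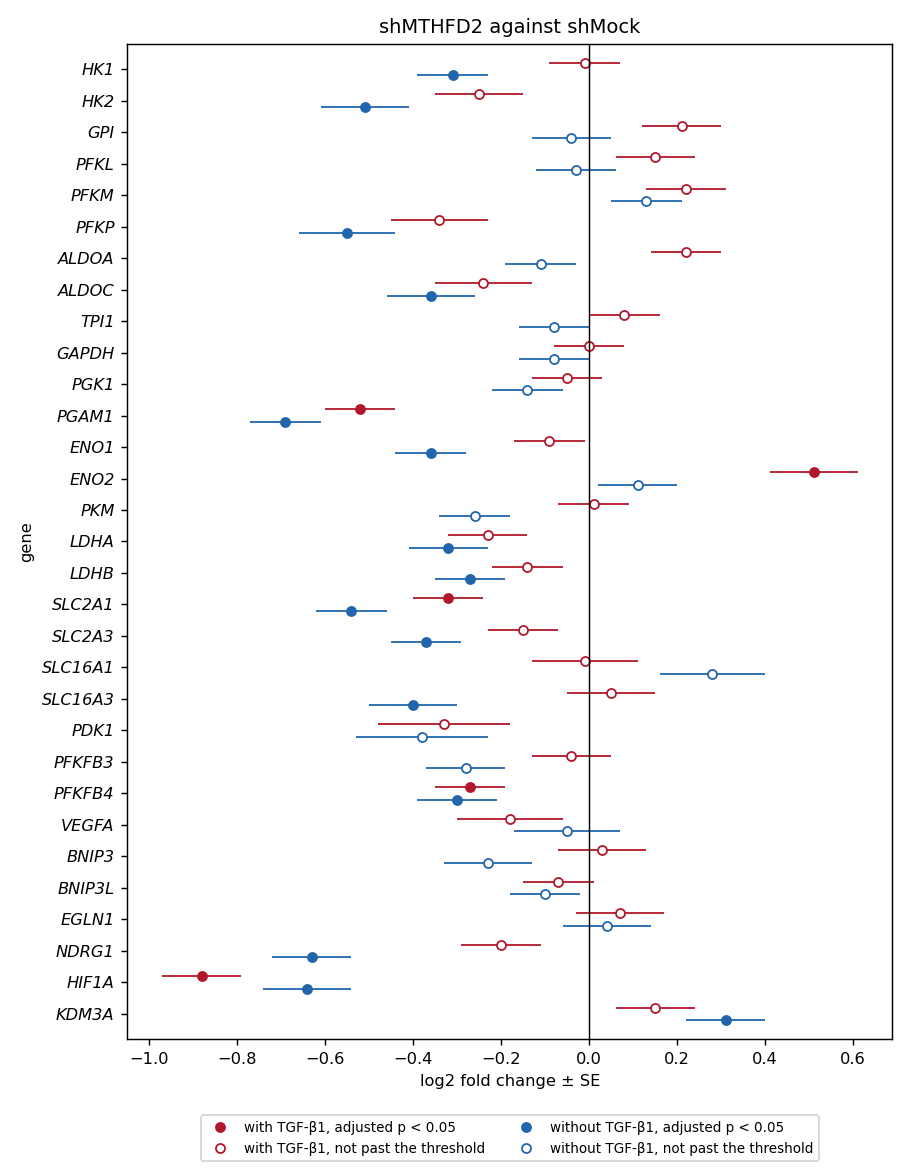
Log2 fold change of shMTHFD2 against shMock with its SE for the 31 tested genes, with TGF-β1 in red and without it in blue; filled points passed an adjusted p of 0.05. HIF1A, PGAM1, SLC2A1 and PFKFB4 are filled on the negative side in both colours, and most of the other filled points belong to the comparison without TGF-β1.

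TGF-β1 raised the regulatory kinases PFKFB3 and PFKFB4 and the carrier SLC16A1, and lowered several enzymes, in both lines. In shMTHFD2 cells PFKFB3, PFKFB4, NDRG1, SLC16A1, HK2, PFKP, PFKL and KDM3A rose, 8 of 31 (25.8%) beside 12.8% of all genes. ALDOC, GAPDH, PKM, ENO1 and LDHB fell, 5 of 31 (16.1%) beside 11.0%. The LDHB call was lost without any one of the 4 shMTHFD2 libraries. In shMock cells PFKFB3, PFKFB4, SLC16A1, KDM3A, HIF1A, PFKP, PFKL and NDRG1 rose, 8 of 31 (25.8%) beside 17.3%, and 13 fell (41.9%) beside 18.1%. The 13 were 12 enzymes, ALDOC, PKM, ENO1, ALDOA, ENO2, GAPDH, GPI, LDHB, TPI1, PFKM, HK1 and PGK1, and the lactate carrier SLC16A3. The PGK1 call was lost in 10 alternatives, among them median-of-ratios factors (edgeR's adjusted p = 0.057). That of TPI1 was lost in 3, among them offsets for GC content and length (edgeR's adjusted p = 0.091). That of HK1 was lost without shMock control library 2 or shMock TGF-β1 library 2. Of the higher genes 7 were shared, 87.5% of each list of 8, and all 5 that fell in shMTHFD2 were among the 13 of shMock (38.5% of them). These overlaps were not counted over all genes either. Library totals moved the median of all genes to -0.12 in shMTHFD2 and -0.16 in shMock. With them 8 of the 31 were higher and 11 lower in shMTHFD2, beside 1222 and 2455 of all 13493 genes. In shMock 5 were higher and 18 lower, beside 1570 and 3932 of all genes. Leaving out shMTHFD2 control library 1, or shMTHFD2 TGF-β1 library 1 or 2, left fewer lower genes in shMTHFD2. In shMock, fewer higher genes and fewer lower genes were left without shMock control library 1 or 2. In each of these runs the calls in the directions named also fell over all genes. The median of the 17 enzymes lay between -0.18 and -0.14 in these shMTHFD2 runs, against -0.17 with all libraries. In the shMock runs it was -0.41 and -0.3, against -0.34.

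**Figure D3:**
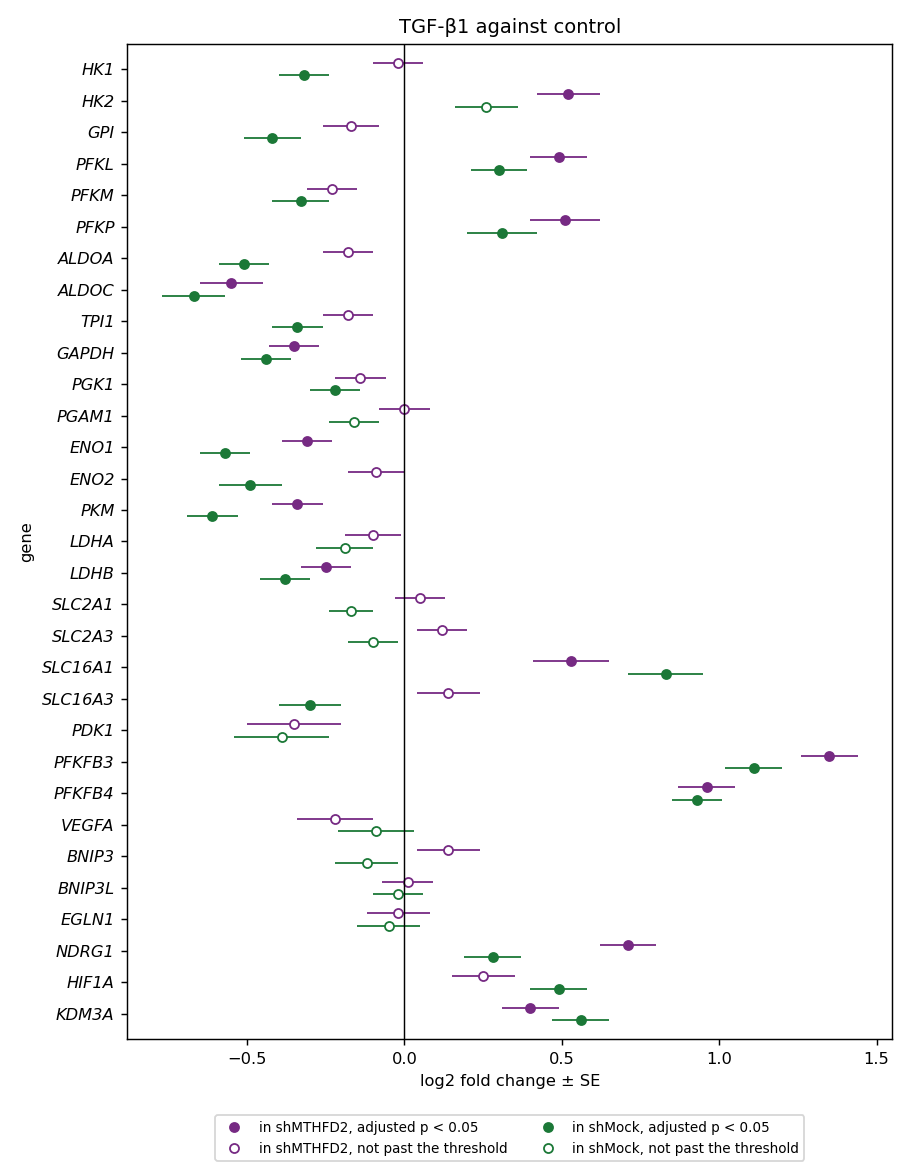
Log2 fold change of TGF-β1 against control with its SE for the 31 tested genes, in shMTHFD2 (purple) and in shMock (green); filled points passed an adjusted p of 0.05. The regulatory kinases PFKFB3 and PFKFB4 lie farthest to the right in both lines, and most enzymes from aldolase to pyruvate kinase lie left of 0.

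HIF1A differed between the lines in both treatments and between treatments in shMock. It had 181 and 213 CPM in shMTHFD2 with TGF-β1, 386 and 340 CPM in shMock with TGF-β1, 159 and 173 CPM in shMTHFD2 control, and 261 and 255 CPM in shMock control. All shMTHFD2 libraries lay below all shMock libraries. HIF1A was 1.84-fold lower in shMTHFD2 than in shMock with TGF-β1 (log2 fold change -0.88, SE 0.09, edgeR's adjusted p = 4.3e-05) and 1.56-fold lower without it (-0.64, SE 0.10, edgeR's adjusted p = 0.00051). TGF-β1 raised it 1.41-fold in shMock (0.49, SE 0.09, edgeR's adjusted p = 0.00083), and the value in shMTHFD2 was 0.25 (SE 0.10, edgeR's adjusted p = 0.075). The difference between these 2 responses was -0.24 (SE 0.13, edgeR's adjusted p = 0.47). An antisense gene, HIF1A-AS1, overlaps it by 117 bases with 9 counts in all, and AL137129.1 overlaps it on the same strand by 148 bases with 251 counts, against 38659 counts for HIF1A.

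Glucose enters through SLC2A1 and SLC2A3 and is trapped by the hexokinases. SLC2A1 had 270.0 and 276 CPM in shMTHFD2 with TGF-β1, 353 and 332 CPM in shMock with TGF-β1, 263 and 263 CPM in shMTHFD2 control, and 380 and 388 CPM in shMock control. Like HIF1A, it was lower in every shMTHFD2 library than in any shMock library. The log2 fold change between the lines was -0.32 (SE 0.08, edgeR's adjusted p = 0.011) with TGF-β1 and -0.54 (SE 0.08, edgeR's adjusted p = 0.00029) without it. With TGF-β1 that adjusted p became 0.073 without shMock TGF-β1 library 1, 0.093 without shMTHFD2 TGF-β1 library 1 and 0.059 without shMTHFD2 TGF-β1 library 2. TGF-β1 left SLC2A1 short of the threshold in both lines (0.05, SE 0.08 in shMTHFD2, and -0.17, SE 0.07 in shMock). SLC2A3, the high-affinity transporter GLUT3, ranged from 69.7 to 96.6 CPM and fell in shMTHFD2 without TGF-β1 (-0.37, SE 0.08); this call was lost without shMock control library 2 (adjusted p 0.085) or shMTHFD2 control library 2 (adjusted p 0.14). HK2, the inducible hexokinase, had 42.0 and 48.7 CPM in shMTHFD2 with TGF-β1, 53.9 and 53.8 CPM in shMock with TGF-β1, 29.7 and 33.8 CPM in shMTHFD2 control, and 44.2 and 46.0 CPM in shMock control. The shMTHFD2 control libraries were the lowest. HK2 rose with TGF-β1 in shMTHFD2 (0.52, SE 0.10, edgeR's adjusted p = 0.0015), with 0.26 (SE 0.10, edgeR's adjusted p = 0.06) in shMock, and it was lower in shMTHFD2 than in shMock without TGF-β1 (-0.51, SE 0.10, edgeR's adjusted p = 0.0047, or 0.058 without shMTHFD2 control library 1).

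The kinases that make fructose 2,6-bisphosphate gave the largest responses to TGF-β1 among the 31 genes. PFKFB3 had 281 and 245 CPM in shMTHFD2 with TGF-β1, 266 and 275 CPM in shMock with TGF-β1, 109 and 97.1 CPM in shMTHFD2 control, and 123 and 127 CPM in shMock control. Its TGF-β1 libraries overlapped between the lines and stood clear of all control libraries. TGF-β1 raised it 2.55-fold in shMTHFD2 (log2 fold change 1.35, SE 0.09, edgeR's adjusted p = 1.8e-08) and 2.16-fold in shMock (1.11, SE 0.09, edgeR's adjusted p = 1.2e-07). PFKFB4 had 77.2 and 76.8 CPM in shMTHFD2 with TGF-β1, 88.1 and 97.1 CPM in shMock with TGF-β1, 38.6 and 40.5 CPM in shMTHFD2 control, and 47.4 and 49.8 CPM in shMock control. The order was the same in both treatments, with shMTHFD2 below shMock, and the increase with TGF-β1 was 1.95-fold in shMTHFD2 and 1.91-fold in shMock (edgeR's adjusted p = 5.4e-07 and 5.3e-07). The differences between the lines, -0.27 (SE 0.08, edgeR's adjusted p = 0.047) with and -0.30 (SE 0.09, edgeR's adjusted p = 0.039) without TGF-β1, were each lost in 10 alternatives; without a single library the adjusted p of the first reached 0.24 (shMock TGF-β1 library 2), and that of the second also reached 0.24 (shMock control library 2). PFKFB4 shares 289 exon bases with UCN2 on the same strand, and UCN2 had 4809 counts against 10053 for PFKFB4, so the split of reads between them is uncertain. The phosphofructokinases PFKL and PFKP rose with TGF-β1 in both lines, by 0.49 and 0.51 in shMTHFD2 and by 0.30 and 0.31 in shMock. In shMock these calls were lost with library totals (adjusted p 0.20 for PFKL and 0.24 for PFKP), without shMock control library 1 or 2 (0.083 to 0.15) and without shMock TGF-β1 library 2 (PFKL, 0.13) or 1 (PFKP, 0.24), and in shMTHFD2 that of PFKP without shMTHFD2 control library 2 (0.053). PFKP was also lower in shMTHFD2 than in shMock without TGF-β1 (-0.55, SE 0.11), a call lost without shMTHFD2 control library 2 (0.078). PFKM, the muscle form, fell in shMock (-0.33, SE 0.09), a call lost without shMock control library 2 (adjusted p 0.11), and it overlaps SENP1 on the opposite strand.

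**Figure D4:**
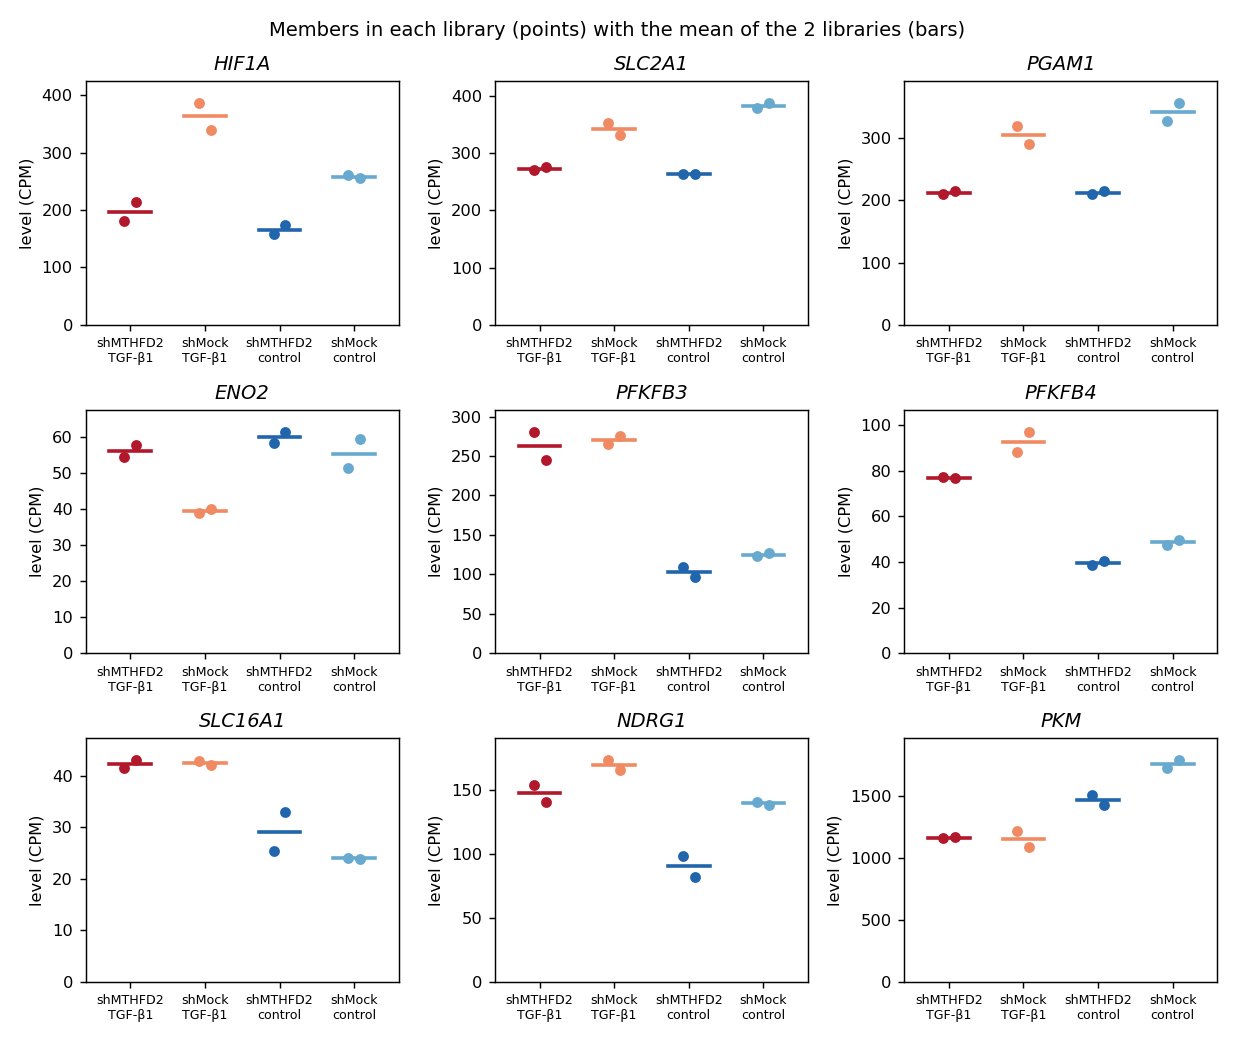
Level in CPM of 9 genes in each of the 8 libraries, as points, with the mean of the 2 libraries of a group as a bar; each vertical axis starts at 0. HIF1A, SLC2A1 and PGAM1 are lower in all shMTHFD2 than in all shMock libraries, PFKFB3, PFKFB4 and SLC16A1 are higher in all TGF-β1 libraries, and NDRG1 is lowest in shMTHFD2 control (82.1 and 98.1 CPM).

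With TGF-β1, 5 of the 17 enzymes fell and 3 rose in shMTHFD2, beside 11.0% and 12.8% of all genes, and 12 fell and 2 rose in shMock, beside 18.1% and 17.3%, and the difference between the 2 responses did not pass for any of them. PKM, pyruvate kinase, had 1158 and 1164 CPM in shMTHFD2 with TGF-β1, 1214 and 1089 CPM in shMock with TGF-β1, 1503 and 1426 CPM in shMTHFD2 control, and 1720.3 and 1785 CPM in shMock control. The control libraries of both lines were above all TGF-β1 libraries. PKM was 1.52-fold lower with TGF-β1 in shMock (log2 fold change -0.61, SE 0.08, edgeR's adjusted p = 4.2e-05), and -0.34 in shMTHFD2 (SE 0.08, edgeR's adjusted p = 0.0076). The adjusted p in shMTHFD2 was 0.054 without shMTHFD2 control library 1 and 0.069 and 0.062 without shMTHFD2 TGF-β1 library 1 or 2. ALDOC, a minor aldolase here, had 28.6 and 26.0 CPM in shMTHFD2 with TGF-β1, 34.5 and 29.8 CPM in shMock with TGF-β1, 40.3 and 39.6 CPM in shMTHFD2 control, and 50.7 and 52.0 CPM in shMock control. It fell with TGF-β1 by 0.55 on the log2 scale in shMTHFD2 (SE 0.10, edgeR's adjusted p = 0.00094) and by 0.67 in shMock (SE 0.10, edgeR's adjusted p = 9.9e-05). ENO1, the main enolase, and GAPDH fell in both lines, by 0.31 and 0.35 in shMTHFD2 and by 0.57 and 0.44 in shMock. The ENO1 call in shMTHFD2 was lost without shMTHFD2 control library 1 (adjusted p 0.069) and without shMTHFD2 TGF-β1 library 1 (0.095) or 2 (0.063), and that of GAPDH without shMTHFD2 TGF-β1 library 1 (0.086). ALDOA and GPI fell in shMock by 0.51 and 0.42 and stood at -0.18 and -0.17 in shMTHFD2. GAPDH is a common reference gene in PCR; its log2 fold change between the lines was 0.00 with and -0.08 without TGF-β1.

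PGAM1, phosphoglycerate mutase, was the enzyme with the lowest log2 fold change between the lines in both treatments. It had 211 and 214 CPM in shMTHFD2 with TGF-β1, 320 and 291 CPM in shMock with TGF-β1, 209 and 214 CPM in shMTHFD2 control, and 327 and 356 CPM in shMock control. The 4 shMTHFD2 libraries were within 209 to 214 CPM whatever the treatment, below every shMock library. PGAM1 was 1.44-fold lower in shMTHFD2 with TGF-β1 (-0.52, SE 0.08, edgeR's adjusted p = 0.00064) and 1.61-fold lower without it (-0.69, SE 0.08, edgeR's adjusted p = 6.7e-05). Its response to TGF-β1 was 0.00 (SE 0.08) in shMTHFD2 and -0.16 (SE 0.08, edgeR's adjusted p = 0.13) in shMock. Its named pseudogenes held 0.658% of the counts of gene and pseudogenes together. ENO2 was higher in shMTHFD2 and was named after its values were seen, as the single member higher in shMTHFD2 with TGF-β1. It had 54.4 and 57.9 CPM in shMTHFD2 with TGF-β1, 38.9 and 40.1 CPM in shMock with TGF-β1, 58.3 and 61.5 CPM in shMTHFD2 control, and 51.3 and 59.5 CPM in shMock control. The shMock TGF-β1 libraries were the low ones: ENO2 fell with TGF-β1 in shMock (-0.49, SE 0.10, edgeR's adjusted p = 0.00094), stood at -0.09 (SE 0.09) in shMTHFD2, and was 1.42-fold higher in shMTHFD2 than in shMock with TGF-β1 (0.51, SE 0.10, edgeR's adjusted p = 0.0028).

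Without TGF-β1, LDHA, LDHB (-0.27, SE 0.08) and the carrier SLC16A3 (-0.40, SE 0.10) were lower in shMTHFD2 than in shMock, and the carrier SLC16A1 stood at 0.28 (SE 0.12). The LDHB call was lost with library totals (adjusted p 0.10), without any one of the 4 control libraries (0.073 for shMock control library 1 to 0.27 for shMock control library 2) and without shMTHFD2 TGF-β1 library 1 (0.078) or 2 (0.057). That of SLC16A3 was lost with library totals (0.058) and without shMock control library 1 (0.11) or 2 (0.073) or shMTHFD2 control library 2 (0.28). LDHA, the form that favours lactate, had 209 and 225 CPM in shMTHFD2 with TGF-β1, 271 and 238 CPM in shMock with TGF-β1, 231 and 235 CPM in shMTHFD2 control, and 275 and 305 CPM in shMock control. Within each treatment both shMTHFD2 libraries lay below both shMock libraries, by a log2 fold change of -0.23 (SE 0.09, edgeR's adjusted p = 0.097) with and -0.32 (SE 0.09, edgeR's adjusted p = 0.029) without TGF-β1. The second call was lost without shMock control library 2 (adjusted p 0.27), shMTHFD2 control library 1 or 2 (0.13 and 0.14) or shMTHFD2 TGF-β1 library 1 (0.051), and with library totals (0.076). The TGF-β1 responses of LDHA did not pass in either line (-0.10 in shMTHFD2 and -0.19 in shMock). SLC16A1, the carrier MCT1, had 41.4 and 43.0 CPM in shMTHFD2 with TGF-β1, 42.9 and 42.1 CPM in shMock with TGF-β1, 25.3 and 33.0 CPM in shMTHFD2 control, and 24.1 and 23.8 CPM in shMock control. The 4 TGF-β1 libraries lay between 41.4 and 43.0 CPM, above all control libraries, with log2 fold changes of 0.53 (SE 0.12, edgeR's adjusted p = 0.0032) in shMTHFD2 and 0.83 (SE 0.12, edgeR's adjusted p = 6.4e-05) in shMock. The shMTHFD2 call was lost without shMTHFD2 control library 1 (adjusted p 0.062). SLC16A3, the exporter MCT4, ranged from 129 to 199 CPM and fell with TGF-β1 in shMock (-0.30, SE 0.10); this call was lost without any one of the 4 shMock libraries, with adjusted p from 0.072 (shMock control library 2) to 0.15 (shMock control library 1), and with offsets for GC content and length (0.11). SLC16A3 overlaps CSNK1D, on the opposite strand, by 482 bases, and CSNK1D had 25547 counts against 26509; the use of strand in the counting is not given in the sources used here, so reads in the overlap cannot be told apart.

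Among the hypoxia-response targets, NDRG1 and KDM3A changed and the others did not pass. NDRG1, a stress-response gene, had 154 and 140 CPM in shMTHFD2 with TGF-β1, 173 and 165 CPM in shMock with TGF-β1, 98.1 and 82.1 CPM in shMTHFD2 control, and 141 and 138 CPM in shMock control. The shMTHFD2 control libraries were low and the other 6 lay between 138 and 173 CPM. NDRG1 was 1.55-fold lower in shMTHFD2 than in shMock without TGF-β1 (-0.63, SE 0.09, edgeR's adjusted p = 0.00043), against -0.20 (SE 0.09, edgeR's adjusted p = 0.16) with it. It rose 1.63-fold with TGF-β1 in shMTHFD2 (0.71, SE 0.09, edgeR's adjusted p = 2.9e-05). In shMock it rose by 0.28 (SE 0.09, edgeR's adjusted p = 0.026), which was lost without shMock control library 1 (0.084) or 2 (0.12), without shMock TGF-β1 library 1 (0.11) and with library totals (0.23). KDM3A ranged from 46.6 to 81.7 CPM and rose with TGF-β1 in shMTHFD2 (0.40, SE 0.09, edgeR's adjusted p = 0.0028) and in shMock (0.56, SE 0.09, edgeR's adjusted p = 0.00014). Its rise in shMTHFD2 without TGF-β1 (0.31, SE 0.09), the single one of its comparison and so named after its values were seen, was lost with offsets for GC content and length (adjusted p 0.097) and without any one of the 4 control libraries (0.073 to 0.22). VEGFA, the angiogenic growth factor, had 65.1 and 72.0 CPM in shMTHFD2 with TGF-β1, 65.8 and 89.7 CPM in shMock with TGF-β1, 78.4 and 81.5 CPM in shMTHFD2 control, and 85.9 and 79.8 CPM in shMock control. Its 4 log2 fold changes lay between -0.22 and -0.05, with SE 0.12. BNIP3 and BNIP3L, mitophagy receptors, ranged from 51.6 to 64.6 and from 182 to 201 CPM, and EGLN1, the main HIF prolyl hydroxylase, from 33.2 to 38.9 CPM. PDK1, which inhibits pyruvate dehydrogenase, had negative values throughout, from -0.39 to -0.33 with SE 0.15, and edgeR's adjusted p was 0.053 to 0.18.

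No gene of the 31 showed a response to TGF-β1 that differed between the lines past the threshold. With edgeR 0 were called, beside 0.0371% of all genes higher and 0.0519% lower, and edgeR's smallest adjusted p was 0.23. DESeq2 also called 0 of them, beside 50 higher and 52 lower of all 13493 genes. At an unadjusted p under 0.05 with edgeR, 7 of the 31 genes stood out (HK1, ALDOA, ENO1, ENO2, PKM, SLC16A3 and NDRG1), all 7 with a positive difference. Over all genes 12.7% had such a p, counted in either direction and not split by sign. All 17 enzymes had a positive difference, from 0.08 (LDHA) to 0.39 (ENO2), with a median of 0.19 against 0.02 over all genes. With offsets for GC content and length 13 of the 17 were positive, and without shMTHFD2 control library 2 or shMock TGF-β1 library 2 it was 16. The enzymes share libraries and are not independent of one another, and the median was not tested. SLC16A3, at 0.44 (SE 0.15), passed without a filter on low counts (edgeR's adjusted p = 0.047). In that run 172 of all 24970 genes were called higher and 149 lower. Without shMTHFD2 control library 1, which leaves 1 library in that group, the SLC16A3 value was 0.61.

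Within families, the share of each form in the summed CPM per kb also differed between groups, given here as a description, since 2 against 2 libraries cannot go below p = 0.333 in an exact permutation test. PFKP made up 45.4 and 43.6% of phosphofructokinase in shMTHFD2 with TGF-β1, 56.1 and 51.2% in shMock with TGF-β1, 40.1 and 36.2% in shMTHFD2 control, and 49.0 and 48.1% in shMock control. The share was lower in shMTHFD2 within each treatment, and PFKM took more, 31.7 and 35.7% in shMTHFD2 control against 25.5 and 27.4% in shMock control. SLC16A1 made up 29.3 and 31.6% of the 2 lactate carriers in shMTHFD2 with TGF-β1, 31.8 and 30.8% in shMock with TGF-β1, 20.4 and 30.3% in shMTHFD2 control, and 17.0 and 17.5% in shMock control. ENO2 made up 9.44 and 9.81% of enolase in shMTHFD2 with TGF-β1, 6.32 and 6.82% in shMock with TGF-β1, 8.04 and 8.83% in shMTHFD2 control, and 6.02 and 6.43% in shMock control. That share was above 8% in all shMTHFD2 libraries and below 7% in all shMock libraries. HK2 took 29.2 to 36.3% of hexokinase with TGF-β1 and 22.1 to 26.7% without. The LDHB share stayed within 70.6 to 74.6% in the 8 libraries. These shares depend on the gene length used.

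**Figure D5:**
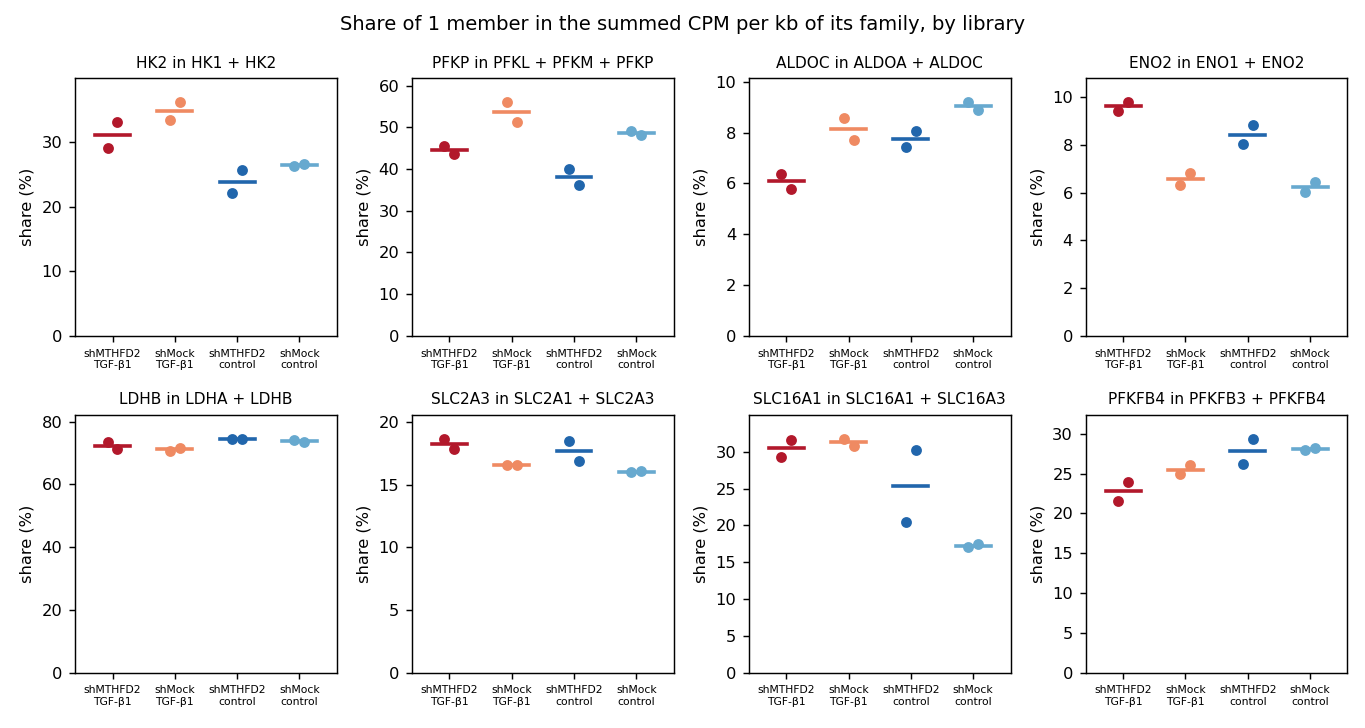
Share in percent of 1 form in the summed CPM per kb of exon of its family, in each of the 8 libraries (points) with the mean of the 2 libraries of a group (bars); each vertical axis starts at 0. ENO2 has a higher share in all shMTHFD2 libraries (8.04 to 9.81%) than in shMock libraries (6.02 to 6.82%), and SLC16A1 a higher share with TGF-β1 than in shMock control.

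Other genes of the surrounding pathways were taken from lists. Of 21 further glycolysis genes 8 were tested. BPGM, which makes 2,3-bisphosphoglycerate, had the largest rise: it increased with TGF-β1 by 2.09 in shMTHFD2 (SE 0.11, edgeR's adjusted p = 9.6e-10) and by 2.57 in shMock (SE 0.11, edgeR's adjusted p = 6.8e-11), where it had 153 and 135 CPM with TGF-β1 and 22.0 and 26.3 CPM in control. PGM1, which links glycogen to glycolysis, rose by 1.12 in shMTHFD2 and 0.82 in shMock. HKDC1, a hexokinase relative, was called lower but lay near the floor, at 0.408 and 0.152 CPM in shMTHFD2 with TGF-β1 against 2.36 and 1.40 CPM in shMTHFD2 control. Between the lines BPGM was lower in shMTHFD2 with TGF-β1 (-0.72), and ADPGK, an ADP-dependent glucokinase, was lower with and without TGF-β1 (-0.62 and -0.46). The median of the 8 was -0.28 and -0.20 between the lines with and without TGF-β1, and -0.09 and 0.13 for TGF-β1 in shMTHFD2 and shMock.

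In the pentose phosphate pathway, the branch that makes NADPH and ribose, PGD, phosphogluconate dehydrogenase, fell with TGF-β1 in shMTHFD2 (-0.73) and in shMock (-0.87), as did TKT (-0.43 in shMTHFD2 and -0.76 in shMock). TKT, transketolase, was higher in shMTHFD2 than in shMock with TGF-β1 (0.41), a call lost without shMock TGF-β1 library 1 (adjusted p 0.069) or shMTHFD2 TGF-β1 library 1 (0.12); its fall in shMTHFD2 was lost without shMTHFD2 TGF-β1 library 2 (0.052). Of 13 genes of mitochondrial pyruvate entry 11 were tested. With TGF-β1, PDK2, a sister kinase of PDK1, rose in shMTHFD2 relative to shMock (0.56), as did PC, pyruvate carboxylase (0.68). These are 2 of the 11, beside 4.83% of all genes, and 9 did not pass. The PC call was lost without shMock TGF-β1 library 2 or shMTHFD2 TGF-β1 library 2 (adjusted p 0.12 each) and with offsets for GC content and length (0.079). Of 11 other carriers 8 were tested, with medians of 0.07 and 0.04 between the lines with and without TGF-β1. With TGF-β1, 3 of the 8 fell in shMTHFD2, beside 11.0% of all genes, led by SLC2A12 (-0.71). In shMock SLC2A12 (-0.83) and SLC2A6 (-0.73) fell, beside 18.1% of all genes, and SLC2A13 (0.49) rose, beside 17.3%. The SLC2A13 call was lost with offsets for GC content and length (edgeR's adjusted p = 0.071).

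Of 15 genes of the oxygen sensing machinery 14 were tested, and only some of those called are named here. Between the lines with TGF-β1, 3 were higher and 1 lower in shMTHFD2, beside 4.83% and 8.23% of all genes. Without it 1 was higher and 2 lower, beside 3.25% and 8.19%. TGF-β1 raised 1 and lowered 3 in shMTHFD2, beside 12.8% and 11.0%, and raised 2 and lowered 4 in shMock, beside 17.3% and 18.1%. CITED2, which competes with HIF for its coactivators, fell with TGF-β1 by 1.20 in shMTHFD2 and by 1.70 in shMock on the log2 scale, and EPAS1, which encodes HIF-2α, by 0.91 and 0.82. CITED2 was also lower in shMTHFD2 than in shMock without TGF-β1 (-0.52). VHL, which targets hydroxylated HIF for degradation, was higher in shMTHFD2 with TGF-β1 (0.40), a call lost without shMock TGF-β1 library 1 (adjusted p 0.085) or shMTHFD2 TGF-β1 library 1 (0.16). ARNT, the partner of HIF1A, rose with TGF-β1 in shMock (0.27), a call lost with library totals (0.24) and without shMock control library 1 (0.17) or shMock TGF-β1 library 1 (0.056) or 2 (0.065). Of 36 other hypoxia-response targets 32 were tested, and TGF-β1 raised some while lowering others: 10 rose and 7 fell in shMTHFD2, beside 12.8% and 11.0% of all genes, and 9 rose and 8 fell in shMock, beside 17.3% and 18.1%. Those that rose most were PLOD2 (1.46 in shMTHFD2 and 1.95 in shMock), BHLHE40 (1.23 and 1.11) and LOX (1.07 and 1.03); PLOD2 and LOX act on collagen crosslinks. CA12, a membrane carbonic anhydrase, fell by 3.08 in shMTHFD2 and by 2.65 in shMock. The median of the 32 was 0.09 and 0.05. Between the lines with TGF-β1, 7 of the 32 were lower in shMTHFD2, beside 8.23% of all genes, led by CA12 (-0.92) and LOX (-0.56). HMOX1 (0.50) and KDM4B (0.29) rose, 2 of the 32 beside 4.83% of all genes, and the KDM4B call was lost in 12 alternatives. Without TGF-β1, 8 of the 32 were lower in shMTHFD2, beside 8.19% of all genes, led by ADM (-0.85), LOX (-0.59) and MXI1 (-0.56).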

How the data were processed

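RNA-seq counts per gene were deposited by the authors as 1 table of raw counts for all 8 libraries, although its name speaks of FPKM. Per the submitters' processing notes the tools were STAR 2.7.1a and DESeq2 1.32.0 with genome build GRCh38; the counting tool and its strand setting are not stated there. Groups follow the sample titles.

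Counts were scaled by trimmed means (factors 0.914 to 1.07) and tested with edgeR 4.0.16 in R 4.3.3, by quasi-likelihood over all 8 libraries with 4 residual degrees of freedom, among the 13493 genes whose mean reached 1 CPM. The test draws each gene's spread toward a trend over all genes, so its p-values do not rest on 4 degrees of freedom alone. SE is the absolute log2 fold change over the root of F. Symbols came from the reference annotation for 60437 of 60666 IDs. A run of the fit on simulated counts covered only the comparison of shMTHFD2 with shMock under TGF-β1. It gave every gene the same spread, and its outcome is not used here. The floor of 3 counts covers counting error only, while the SE also takes in the scatter between libraries. Replicate libraries differed by more than sampling noise (chi-square per degree of freedom 6.47 to 11.2).

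The members and lists were chosen with earlier results of these data known. Values per library are given for members with a called change of at least 1.5-fold and for HIF1A, SLC2A1, HK2, LDHA and VEGFA, and from each list up to 3 genes per direction. Alternatives were median-of-ratios factors, library totals, no filter, a mean of at least 5 CPM, DESeq2 1.42.0, the groups of a comparison alone, a replicate block, offsets for GC content and length, both together, and leaving out each library. A result that needs 1 further listed gene is not reported here.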

Additional observations from a re-analysis of the deposited data

Results flagged for a closer look

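Among the hypoxia-response genes outside the 34, ADM, which encodes the vasodilator peptide adrenomedullin, had a response to TGF-β1 that differed between the lines. It had 99.8 and 94.9 CPM in shMTHFD2 with TGF-β1, 85.2 and 94.9 CPM in shMock with TGF-β1, 164.5 and 126.7 CPM in shMTHFD2 control, and 260.7 and 266.1 CPM in shMock control. The TGF-β1 libraries of both lines were alike and the shMock control libraries were the highest. The log2 fold change with TGF-β1 was -0.58 (SE 0.11) in shMTHFD2 and -1.55 (SE 0.11) in shMock, and the difference was 0.97 (SE 0.15, edgeR's adjusted p = 0.031). Its adjusted p was 0.11 without shMock control library 2, 0.12 without shMock TGF-β1 library 1, 0.097 without shMTHFD2 control library 2 and 0.073 without shMTHFD2 TGF-β1 library 1.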

How the results depend on the processing

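Of 54 calls among the 31 genes, 27 held in every alternative, and no value changed sign past the threshold. With TGF-β1, the knockdown gave 4 higher genes with library totals and 7 lower with offsets for GC content and length plus the replicate block, and leaving out 1 library gave 1 higher and 2 to 5 lower. Without TGF-β1 it gave 0 higher with those offsets, with or without the block, and 8 lower with library totals, and leaving out 1 library gave 0 to 1 higher and 5 to 15 lower. For TGF-β1 in shMTHFD2, library totals gave 11 lower, and leaving out 1 library 7 to 9 higher and 1 to 5 lower; in shMock, library totals gave 5 higher, and leaving out 1 library 5 to 9 higher and 8 to 13 lower. For the difference between responses, no filter gave 1 higher and leaving out 1 library 0 to 1. With library totals the counts over all genes moved as well. With the offsets plus the block, 1079 of all 13493 genes were lower in the knockdown with TGF-β1, against 1110 in the fit used above. Without TGF-β1, 470 of all genes were higher with the offsets and 480 with the block added, against 438. For the difference between responses, no filter gave 172 higher and 149 lower of 24970 genes, against 5 and 7 of 13493. How many calls over all genes held in every alternative was not counted. In the 4 comparisons between groups, leaving out a library of either group lowered the calls over all genes too, in both directions. The cause of these changes was not tested. Replicate numbers did not pair the libraries (correlation of deviations -0.0203 to 0.0687). With the replicate block the counts of higher and lower genes among the 31 were 1 and 4 for the knockdown with TGF-β1, and 1 and 14 without. They were 8 and 5 for TGF-β1 in shMTHFD2, 9 and 13 in shMock, and 0 and 0 for the difference. Over all genes, in the same order, the block gave 659 and 1075, 435 and 1095, 1708 and 1486, 2311 and 2442, and 6 and 7. In shMock control, family shares from CPM without length were 25.8% for HK2, 36.0% for PFKP, 6.93% for ALDOC, 5.11% for ENO2, 57.6% for LDHB, 19.9% for SLC2A3 and 11.0% for SLC16A1, and with the longest transcript 19.4% for HK2, 8.69% for ALDOC, 4.63% for ENO2, 68.0% for LDHB, 17.1% for SLC2A3, 12.0% for SLC16A1 and 32.9% for PFKFB4.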
